A study of Mus musculus with 12 samples.

Results

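The genes described here are 10 liver enzymes of bile acid synthesis and conjugation, namely Cyp7a1, Cyp7b1, Cyp8b1, Cyp27a1, Hsd3b7, Akr1d1, Amacr, Acox2, Slc27a5 and Baat. These genes, from tables of 24062, were chosen by name for their known place in the pathway, with earlier results of these data known. They were measured by RNA-seq in liver of 12 female C57BL/6J mice, an inbred wild-type strain. Over 10 days, 6 mice ate the control diet and 6 ate a matched diet with BIBB-515. The dose, 55 mg/kg, refers to the weight of the animal and not to that of the food. Fat supplied 15% of the energy in both diets, carbohydrate 65% and protein 20%. BIBB-515 inhibits lanosterol synthase, an enzyme of cholesterol synthesis that is encoded by Lss. All animals arrived at 6 weeks of age, were acclimated for 2 weeks and ate the control diet for 3 days before the start, and no transgene or gene deletion is named for either group. The study fed 11 mice per group and the libraries here carry the numbers 1 to 6 among controls and 6 to 11 among BIBB-515 mice. The labels give no batch, and the time of day at harvest is not given in the sources used here.

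Bile acids are made from cholesterol in hepatocytes. The classic pathway begins with Cyp7a1, its rate-limiting enzyme, and the alternative pathway begins with side-chain oxidation by the mitochondrial enzyme Cyp27a1 followed by ring hydroxylation by Cyp7b1. Hsd3b7 and Akr1d1 then modify the sterol ring, Cyp8b1 adds the hydroxyl group that distinguishes cholic acid from chenodeoxycholic acid, Slc27a5, Amacr and Acox2 activate and shorten the side chain, and Baat joins the product to taurine or glycine. Bile acids restrain this synthesis through the nuclear receptor FXR, encoded by Nr1h4, and cholesterol is used up by it.

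The sequence just before the transcription start is shown for the members that rose with BIBB-515 and have an entry among the RefSeq promoters of GRCm38.p6, the assembly that mm10 also names. RefSeq promoters matched 5 of the 10 members, and Cyp7a1, Cyp7b1, Amacr, Slc27a5 and Baat were not matched. Each run gives the 250 bases before the start in the direction of the gene. Capitals mark matches to AGGTCA (a half-site of nuclear receptors), TCAAGG (the core bound by LRH-1, encoded by Nr5a2), CAAAGTC (a core of HNF4 sites) or TATAAA (the TATA box), each searched on both strands.
Cyp8b1, chr9:121916306-121916555, minus strand: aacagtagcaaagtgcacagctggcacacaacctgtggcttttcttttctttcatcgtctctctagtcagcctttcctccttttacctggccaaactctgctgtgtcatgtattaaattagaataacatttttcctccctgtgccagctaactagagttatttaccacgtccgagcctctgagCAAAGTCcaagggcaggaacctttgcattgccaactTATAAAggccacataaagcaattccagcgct
Akr1d1, chr6:37529923-37530172, plus strand: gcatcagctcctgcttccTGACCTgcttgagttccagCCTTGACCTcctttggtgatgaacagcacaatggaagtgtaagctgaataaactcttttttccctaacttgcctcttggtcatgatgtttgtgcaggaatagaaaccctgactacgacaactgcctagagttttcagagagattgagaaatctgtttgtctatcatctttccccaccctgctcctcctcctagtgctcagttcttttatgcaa
Acox2, chr14:8259020-8259269, minus strand: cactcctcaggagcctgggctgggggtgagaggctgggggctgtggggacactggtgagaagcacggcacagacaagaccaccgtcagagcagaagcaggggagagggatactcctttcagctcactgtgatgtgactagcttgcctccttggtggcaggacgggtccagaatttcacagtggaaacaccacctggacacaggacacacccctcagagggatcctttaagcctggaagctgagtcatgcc
The Cyp8b1 run held CAAAGTC at position -67 and TATAAA at position -31, counted from the start site. The Akr1d1 run held AGGTCA on the opposite strand at positions -232 and -210, and TCAAGG on that strand at position -213, where it shares bases with the second half-site. The Acox2, Cyp27a1 and Hsd3b7 runs held none of these letters. Over 32851 promoters of the same length, 14.0% held AGGTCA, 12.5% TCAAGG, 3.84% CAAAGTC and 12.4% TATAAA. These matches describe letters only.

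Between 22764819 and 31058370 counts per mouse fell on genes, and each member was covered by at least 263 counts in every library. Values are in CPM, depth-scaled counts that were normalized by TMM, SE is the standard error of a log2 fold change, and a gene was called when its FDR, the Benjamini-Hochberg adjusted p over all 12481 tested genes from edgeR's quasi-likelihood test, was under 0.05. The mice are named by their label numbers. Of the libraries of 1 diet, each pair differed by more than sampling noise. Among the hepatocyte markers Alb, Apoa1, Apoa2, Ttr, Tat, Cps1 and Fgb, 3 of 7 were called lower (Alb, Ttr and Fgb), beside 6.48% of all tested genes. The summed level of the 7 was 147938 to 165302 CPM in controls and 113225 to 129232 CPM with BIBB-515. Most of this sum was Alb, at 114251 to 127370 CPM in controls and 81730 to 95915 CPM with BIBB-515. The call of Fgb was lost in 10 of 20 alternatives and that of Alb in 1. Markers of pancreas stayed under 1 CPM in every mouse for 6 of 6 genes, those of fat for 5 of 6 and those of gut for 5 of 6. The remaining gut marker, Fabp2, which hepatocytes also express, lay between 65.0 and 141 CPM in controls and 60.8 and 83.1 CPM with BIBB-515 and was called lower (log2 fold change -0.66, edgeR FDR 0.0114). The part of the hepatocyte marker levels in the results for the members was not tested, and in whole liver fewer cells of a type and less RNA per cell cannot be told apart.

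BIBB-515 was accompanied by higher RNA of 4 of the 10 members, Cyp8b1, Akr1d1, Cyp7b1 and Acox2, and no member was called lower. Cyp8b1 rose 1.76-fold, Akr1d1 1.58-fold, Cyp7b1 1.54-fold and Acox2 1.31-fold. The estimates of 8 members were above 0 and those of 2 below 0, with a median log2 fold change of 0.24. Of all tested genes 13.7% were called, 7.18% higher and 6.48% lower, and their median log2 fold change was -0.01. As the members were chosen with earlier results of these data known, these shares are set side by side as description only. Cyp7a1 had a lower mean with BIBB-515 that was not called. In 3 of the 10 members (Cyp8b1, Akr1d1 and Acox2) the diets did not overlap, beside 7.07% of all tested genes. The summed level of the 10 members was 2674 to 3713 CPM in controls and 3602 to 3909 CPM with BIBB-515.

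**Figure D1:**
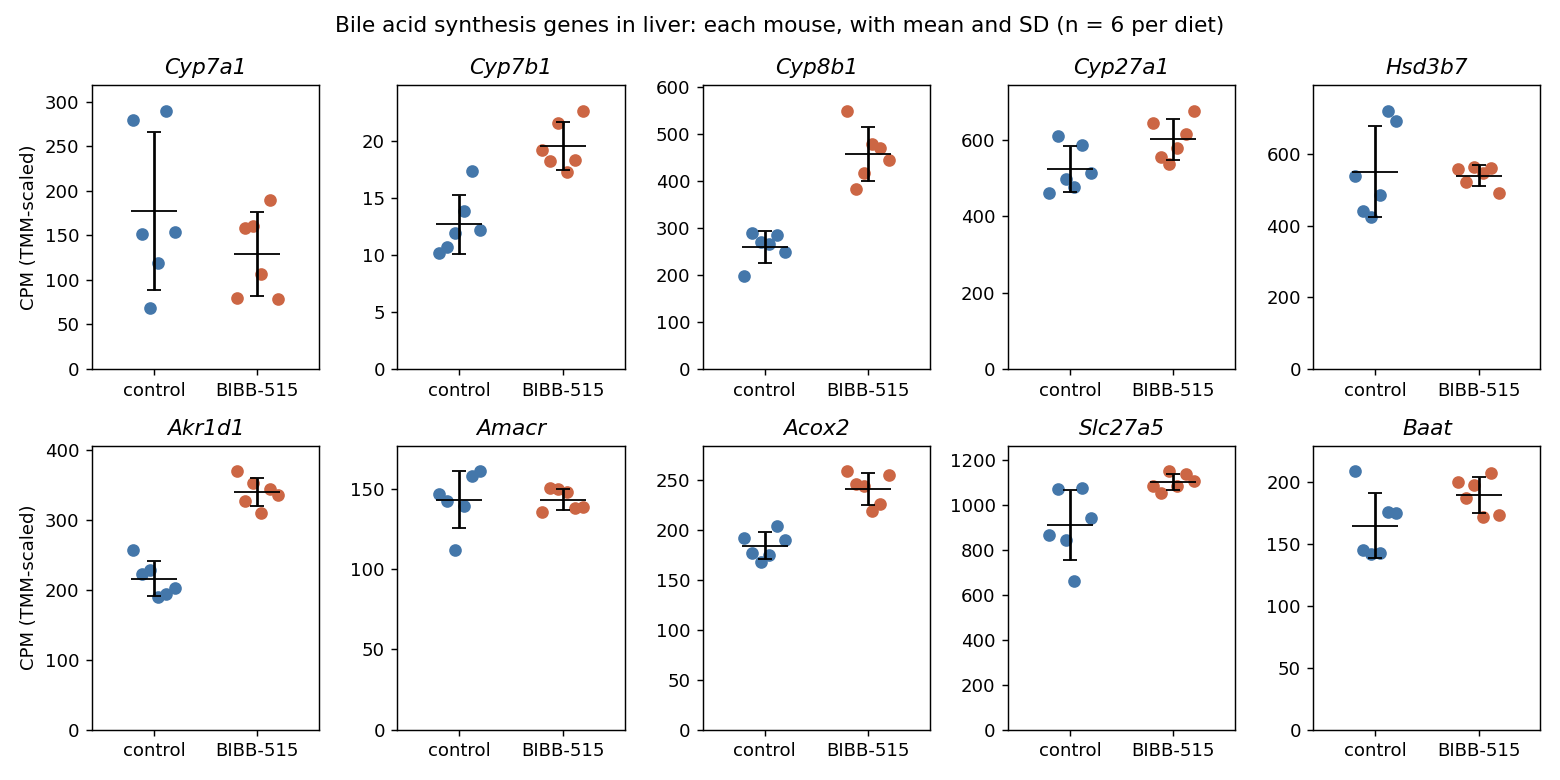
Each panel plots 1 gene, with the level of each mouse in CPM on the vertical axis and the diet on the horizontal axis; points are mice, and the horizontal mark with its bar is the mean ± SD (n = 6 per diet). Cyp8b1, Akr1d1 and Acox2 show no overlap between the diets, while the Cyp7a1 points span 68.3 to 290 CPM in controls and 78.9 to 190 CPM with BIBB-515.

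The entry of the classic pathway, Cyp7a1 (chr4:6265612-6275631, minus strand, mm10), was the member with the widest spread between mice. Control mice had 68.3 CPM at the lowest, 152 at the median and 290 at the highest, and BIBB-515 mice had 78.9, 132 and 190 CPM. Every BIBB-515 mouse lay inside the control range, while controls 1 and 5, at 279 and 290 CPM, stood above the highest BIBB-515 mouse and control 3 below the lowest. The mean was 177 ± 88.9 CPM (SD, n = 6) in controls and 129 ± 46.8 CPM (SD, n = 6) with BIBB-515, and the control mean exceeded 5 of the 6 BIBB-515 values. The log2 fold change was -0.46 (SE 0.32, 95% interval -1.14 to 0.22, edgeR FDR 0.363, exact permutation p = 0.372). When each mouse was left out it ran from -0.62 to -0.26, with -0.28 without control 1 and -0.26 without control 5, and it was called in none of these fits. In its 6 exons, the log2 ratio of group means ran from -0.49 to -0.32, and that of group medians from -0.30 to -0.007.

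Cyp8b1 (chr9:121914356-121916305, minus strand), a microsomal P450 whose gene has a single exon, changed most among the members. Its level was 199 CPM at the lowest, 268 at the median and 290 at the highest among controls, against 383, 458 and 550 CPM among BIBB-515 mice. Every BIBB-515 mouse was above every control mouse, a pattern of no overlap in this direction that 4.35% of all tested genes showed. The mean went from 260 ± 33.6 to 457 ± 57.3 CPM (SD, n = 6 each), a log2 fold change of 0.81 (SE 0.10, 95% interval 0.59 to 1.03, edgeR FDR 0.000156). The two-sided exact permutation test gave p = 0.00216, the smallest that 6 mice against 6 allow. The lowest control was control 1, which was among the highest controls in Cyp7a1. Control 5, the highest in Cyp7a1, was near the top of the Cyp8b1 controls at 286 CPM. Control 3, the lowest in Cyp7a1, had 270 CPM of Cyp8b1.

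Of the alternative pathway, Cyp7b1 (chr3:18071950-18243338, minus strand), the oxysterol hydroxylase of the endoplasmic reticulum, was called higher and Cyp27a1 was not called. Cyp7b1 was the least abundant member per kb of exon, with 10.2 CPM at the lowest, 12.0 at the median and 17.3 at the highest among controls and 17.3, 18.8 and 22.6 CPM among BIBB-515 mice. The 2 groups touched at 1 point, where control 5 lay just above the lowest BIBB-515 mouse, and 5 of 6 BIBB-515 mice were above every control. Its mean went from 12.7 ± 2.61 to 19.5 ± 2.10 CPM (SD, n = 6 each), a log2 fold change of 0.63 (SE 0.12, edgeR FDR 0.0032; exact permutation p = 0.00433). All 6 of its exons had a higher group mean with BIBB-515, by 0.43 to 1.11 on the log2 scale.

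Cyp27a1 (chr1:74713574-74737890, plus strand) is the mitochondrial sterol hydroxylase that acts in both pathways. Its control mice lay between 462 and 611 CPM with a median of 506, and its BIBB-515 mice between 537 and 677 CPM with a median of 598. The groups overlapped, with 3 of 6 BIBB-515 mice above every control and all 6 above the control mean. The log2 fold change was 0.20 (SE 0.09, 95% interval 0.01 to 0.39) and missed the threshold, with an edgeR FDR of 0.145. Its unadjusted exact permutation p was 0.0455, and 29.7% of all tested genes had an unadjusted edgeR p under 0.05.

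The ring-modifying enzymes Akr1d1 and Hsd3b7 differed in their results. Akr1d1 (chr6:37530173-37568815, plus strand) is the reductase that gives the ring system of bile acids its bend. It had 190 CPM at the lowest, 213 at the median and 256 at the highest among controls and 310, 339 and 369 CPM among BIBB-515 mice. The groups were separate, and the highest control, control 1, stayed well under the lowest BIBB-515 mouse. The mean rose from 215 ± 25.1 to 339 ± 20.5 CPM (SD, n = 6 each), a log2 fold change of 0.66 (SE 0.08, edgeR FDR 0.000102; exact permutation p = 0.00216). In each of its 9 exons all BIBB-515 mice were above all controls, with log2 ratios of means from 0.60 to 0.75.

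Hsd3b7 (chr7:127800609-127803802, plus strand), the dehydrogenase that acts before Akr1d1, had 425 CPM at the lowest, 513 at the median and 721 at the highest among controls and 491, 553 and 563 CPM with BIBB-515. All BIBB-515 mice lay inside the control range, in which controls 5 and 6 stood highest. The log2 fold change was -0.03 (SE 0.12, 95% interval -0.30 to 0.24, edgeR FDR 0.906, exact permutation p = 0.989). Its counts in the tables of primary alignments were, at the median, 1.0 times those used here. Of the 50-base words of its GENCODE transcripts, 50.7% also occur in transcripts of Gm49388, and an effect of this on its counts was not tested. For the other 9 members this share was 0%, and no member has an exon that overlaps another gene of the count tables.

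Of the side-chain enzymes, Acox2 was called, Slc27a5 came close to the threshold and Amacr had equal means. Acox2 (chr14:8225511-8259019, minus strand), the branched-chain acyl-CoA oxidase, had 168 CPM at the lowest, 184 at the median and 205 at the highest among controls and 219, 245 and 259 CPM with BIBB-515. The groups did not overlap, although the gap between them was narrow. Its mean went from 185 ± 13.4 to 242 ± 15.9 CPM (SD, n = 6 each), a log2 fold change of 0.39 (SE 0.07, edgeR FDR 0.00187; exact permutation p = 0.00216). Each of its 16 exons had a higher mean with BIBB-515 and 7 of them had no overlap, and over the exons of the 4 called members the group mean was higher in 32 of 32. Exons of 1 gene come from the same reads as the gene count and are no further evidence.

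Slc27a5 (chr7:12988346-12998192, minus strand), the bile acyl-CoA synthetase, was the most abundant member per kb of exon. It had 664 CPM at the lowest, 906 at the median and 1079 at the highest among controls and 1056, 1096 and 1151 CPM with BIBB-515. The BIBB-515 mice were packed closely, with 5 of 6 above every control and the lowest inside the control range. The log2 fold change was 0.28 (SE 0.10, edgeR FDR 0.0883). Its unadjusted exact permutation p was 0.0108, where 29.7% of all tested genes had an unadjusted edgeR p under 0.05. Its FDR was 0.0415 with DESeq2, 0.0418 with 1 surrogate variable as covariate, 0.0474 without control 2 and 0.0407 without control 5. In the other 16 of 20 alternatives it stayed above 0.05, up to 0.151.

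Amacr (chr15:10981756-10996624, plus strand), the racemase that turns the side chain into the form Acox2 accepts, averaged 143 ± 17.5 CPM in controls and 143 ± 6.64 CPM with BIBB-515 (SD, n = 6 each). The log2 fold change was 0.00 with a 95% interval from -0.17 to 0.17, which leaves out the change estimated for Acox2. The exact permutation p of Amacr was 0.952. Baat (chr4:49489418-49506558, minus strand), the transferase of the last step, averaged 165 ± 26.6 and 189 ± 14.7 CPM (SD, n = 6 each). The 2 groups of Baat overlapped, and the log2 fold change of 0.20 (SE 0.10) had an edgeR FDR of 0.181 and an exact permutation p of 0.0801. Without control 1, which had the highest control value of Baat, the log2 fold change was 0.28 and the FDR 0.0481. The other 11 fits that left out 1 mouse did not call Baat, with log2 fold changes down to 0.17 and an FDR of up to 0.302.

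**Figure D2:**
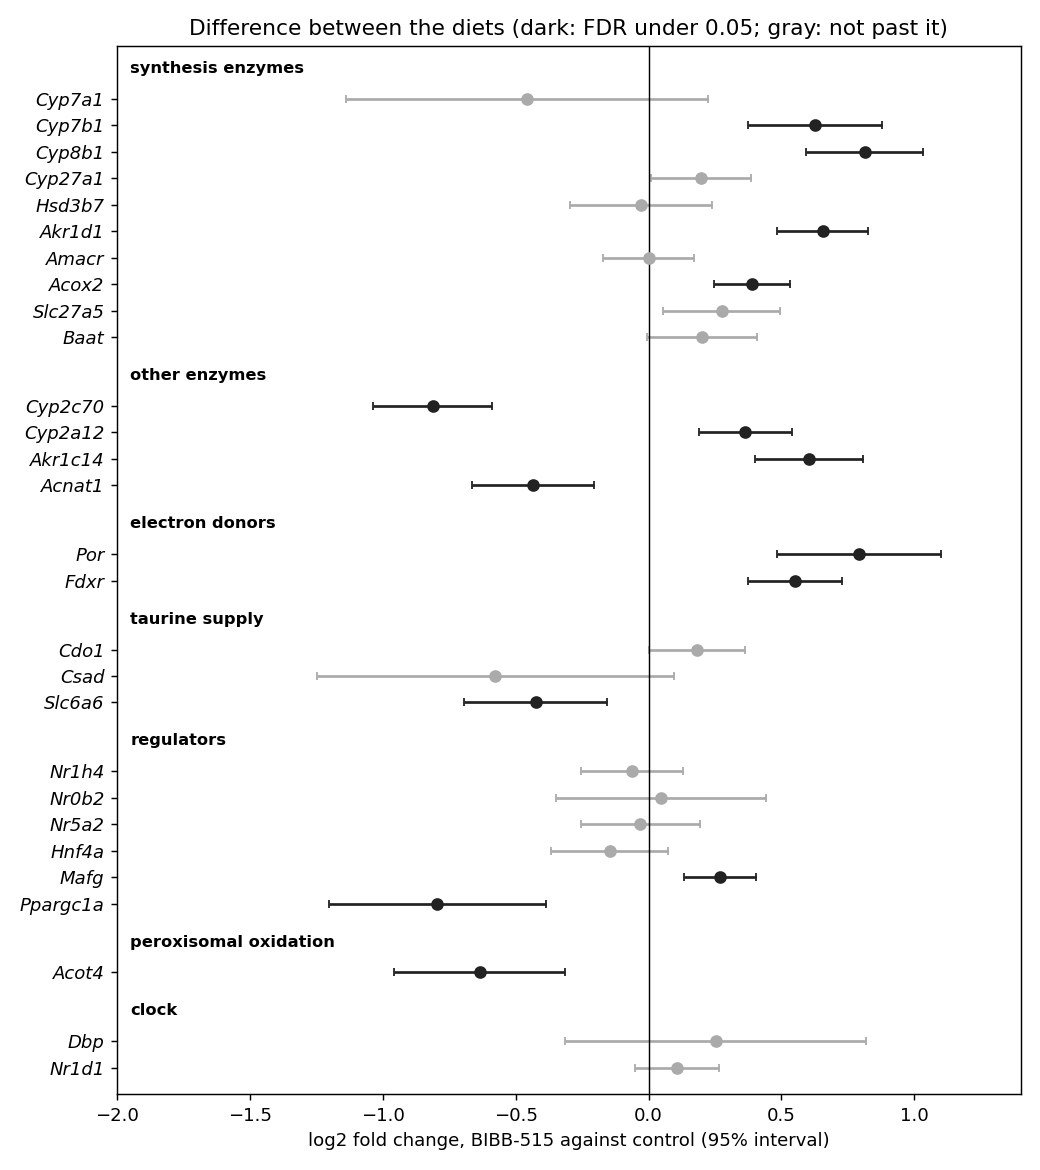
The horizontal axis gives the log2 fold change of BIBB-515 against control from edgeR, with its 95% interval as a bar, for the 10 members and for the named genes of the companion lists; dark points passed an FDR of 0.05 and gray points did not. Among the members Cyp8b1, Akr1d1, Cyp7b1 and Acox2 lie to the right of 0 in dark, and the bar of Cyp7a1 is the widest of the 10, from -1.14 to 0.22.

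Levels between genes were compared as CPM per kb of exon. In controls the order ran from Slc27a5 at 391 through Hsd3b7 at 302, Cyp27a1 at 278, Cyp8b1 at 133, Baat at 84.6, Akr1d1 at 79.8, Acox2 at 70.2, Amacr at 55.7 and Cyp7a1 at 42.4 to Cyp7b1 at 5.85 CPM per kb. Neighbors in this order overlapped in their ranges over mice except at 3 steps, between Cyp27a1 and Cyp8b1, between Acox2 and Amacr and between Cyp7a1 and Cyp7b1. With BIBB-515, Cyp8b1 stood at 234 CPM per kb, a level whose range reached that of Hsd3b7 at 296. Akr1d1, at 126 CPM per kb, then stood above Baat at 97.3, and the ranges of those 2 genes no longer overlapped.

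**Figure D3:**
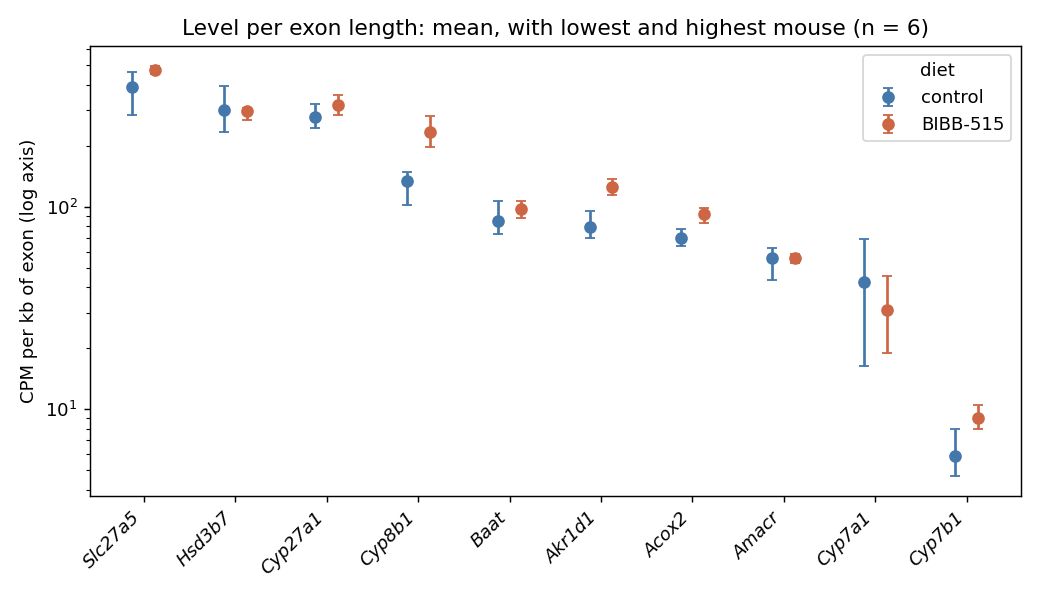
The vertical log axis gives CPM per kb of exon and the horizontal axis the members, ordered by their control level; points are group means and bars run from the lowest to the highest mouse (n = 6 per diet). Cyp8b1 moves from 133 to 234 CPM per kb, toward Hsd3b7 and Cyp27a1, and Cyp7b1 is lowest on both diets.

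RNA of Cyp8b1, Cyp7b1 and Cyp27a1 was set against that of Cyp7a1 within each mouse, as a ratio per kb. Such a ratio needs no scaling between libraries, and it does not measure the flow through either pathway. The log2 ratio of Cyp8b1 to Cyp7a1 was between 0.60 and 3.08 in controls and between 2.37 and 3.89 with BIBB-515. All 6 BIBB-515 mice were above the control mean, and 3 were above every control. The geometric mean ratio went from 3.50 to 8.01, a difference of 1.19 on the log2 scale (two-sided exact permutation p = 0.0281, adjusted over 3 ratios p = 0.0519). The ratio of Cyp7b1 to Cyp7a1 differed by 1.02 (exact permutation p = 0.0346, adjusted p = 0.0519) and that of Cyp27a1 to Cyp7a1 by 0.58 (exact permutation p = 0.203, adjusted p = 0.203). None of the 3 ratios passed 0.05 after adjustment. Control 3, the mouse with the lowest Cyp7a1, had the highest control value of each ratio. Without it the adjusted exact permutation p was 0.00649 for Cyp8b1 to Cyp7a1 and 0.0162 for Cyp7b1 to Cyp7a1, and without BIBB-515 mouse 10 it was 0.0422 for both.

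**Figure D4:**
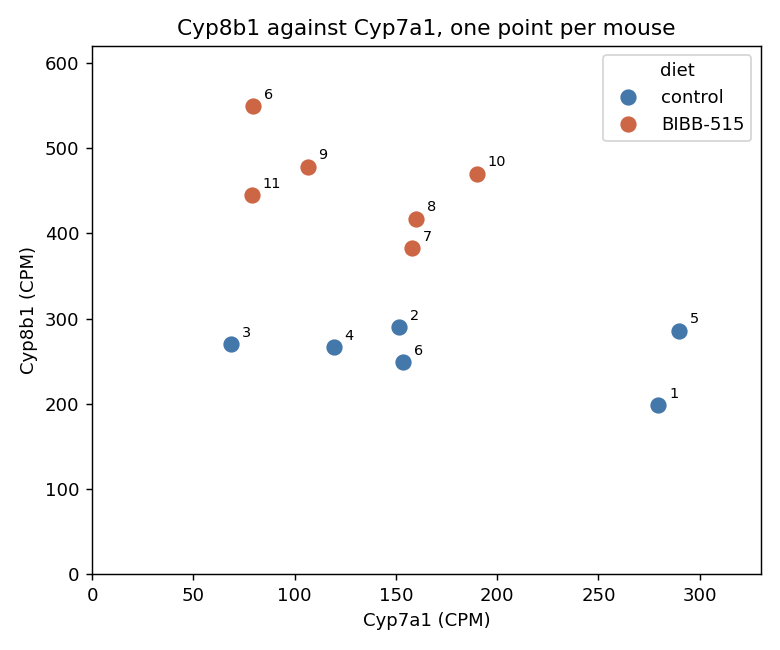
Each point is 1 mouse, with Cyp7a1 in CPM on the horizontal axis and Cyp8b1 in CPM on the vertical axis, and is marked with its label number. The BIBB-515 points start at 383 CPM of Cyp8b1, whatever their Cyp7a1, and the control points end at 290 CPM.

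The mice also differed within a diet, and less so with BIBB-515. The coefficient of variation was smaller with BIBB-515 in 10 of 10 members, with a median of 14.5% in controls and 7.16% with BIBB-515. This was a feature of most genes, since it was smaller in 77.8% of all tested genes, whose medians were 13.6% and 9.17%. Cyp7a1 kept the largest coefficients, 50.3% and 36.4%. Control 5 was the highest control in 5 members (Cyp7a1, Cyp7b1, Hsd3b7, Acox2 and Slc27a5), and control 3 was the lowest in 5 (Cyp7a1, Hsd3b7, Amacr, Acox2 and Baat). With diet means removed, Cyp7a1 varied over the 12 mice alongside Baat (Pearson's r 0.72) and Amacr (0.71) and opposite to Cyp8b1 (-0.44). Hsd3b7 and Amacr had an r of 0.75. These are descriptions over 12 points that share library depth and mouse. Controls 1, 3 and 5 lay farthest from their diet mean in Cyp7a1.

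**Figure D5:**
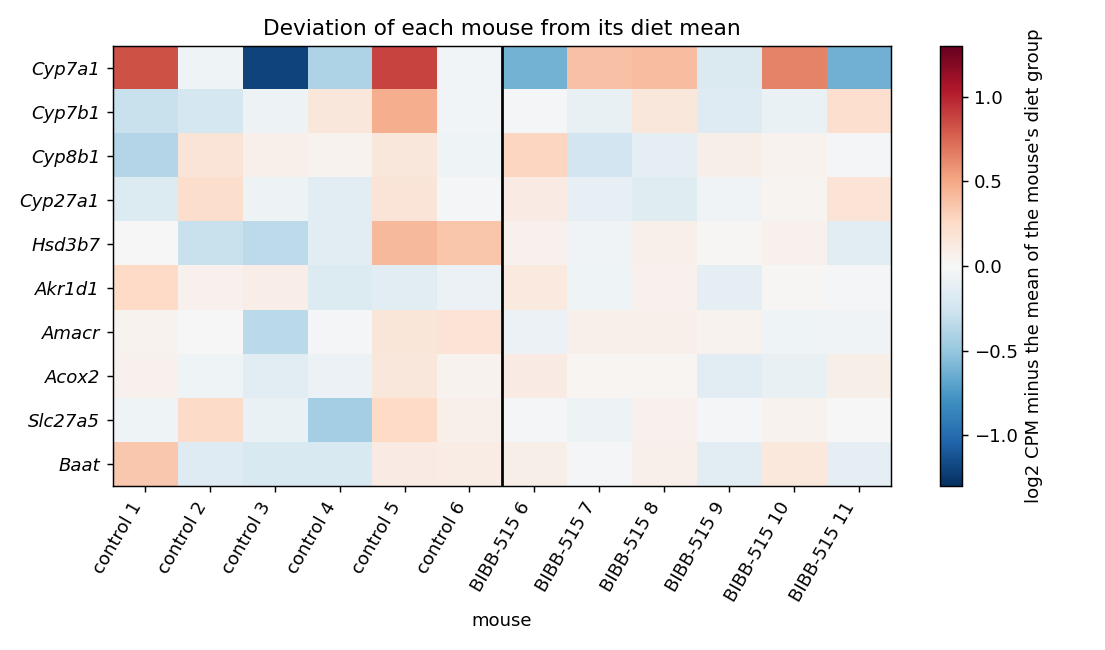
Rows are members and columns are mice, and color gives the log2 CPM of a mouse minus the mean of its own diet group, red for higher and blue for lower. The Cyp7a1 row is the most strongly colored, with controls 1 and 5 red and control 3 blue, and the columns of controls 1, 3 and 5 hold the strongest colors.

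The genes most like Cyp7a1 in these deviations, among genes averaging 1 or more in log2 CPM, were Tpcn1 (Pearson's r 0.95), Ang (0.94), Dnajb6 (0.93), Trim26 (0.93) and Gjb2 (0.93), over 12 mice. Of these, Ang was called, falling from 191 ± 43.2 to 118 ± 13.6 CPM (SD, n = 6 each; edgeR FDR 0.00383). For Cyp8b1 the most alike genes were Zfp346 (0.86), Atoh8 (0.83), Rnf113a2 (0.83), Zswim4 (0.82) and Plekhg5 (0.79). By ranks, Spearman's rho with Cyp8b1 was lower for Atoh8 (0.60) and Rnf113a2 (0.70), and was 0.89 for Zfp346 and 0.83 for Zswim4 and Plekhg5. The r values are the highest among all genes searched and are descriptions. Plekhg5 rose from 9.56 ± 1.52 to 12.9 ± 1.25 CPM (SD, n = 6 each; edgeR FDR 0.0145).

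Around the members, 7 companion lists, also chosen with earlier results of these data known, held 80 genes. Of these, 73 were tested and 11 called, 6 higher and 5 lower, or 15.1% beside the 13.7% of all tested genes. Among 13 tested enzymes of further bile acid steps, 2 rose and 2 fell. Cyp2c70, the mouse enzyme that makes muricholic acids, had 550 CPM at the lowest, 560 at the median and 720 at the highest among controls and 293, 348 and 405 CPM with BIBB-515. No BIBB-515 mouse reached the lowest control, and 2.72% of all tested genes were without overlap in this direction. The mean of Cyp2c70 fell from 609 ± 81.9 to 346 ± 44.7 CPM (SD, n = 6 each), a log2 fold change of -0.81 (SE 0.10, edgeR FDR 0.000166). It thus moved by as much as Cyp8b1, in the opposite direction. Acnat1, a peroxisomal acyltransferase related to Baat, fell by 0.43 on the log2 scale (FDR 0.0163). Akr1c14, a hydroxysteroid dehydrogenase, rose by 0.60 (FDR 0.000938), and Cyp2a12, which rehydroxylates secondary bile acids in mice, rose by 0.36 (FDR 0.00955).

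The P450 members take electrons from partner proteins. Of 4 tested partners, 2 were called higher and none lower, beside 7.18% and 6.48% of all tested genes. Por, the reductase that serves the microsomal enzymes Cyp7a1, Cyp7b1 and Cyp8b1, lay between 396 and 754 CPM in controls and between 847 and 1002 CPM with BIBB-515. The groups did not overlap, as for 4.35% of all tested genes in this direction. The log2 fold change of Por was 0.79 (SE 0.14, edgeR FDR 0.00265). Fdxr, the mitochondrial reductase in the chain that serves Cyp27a1, rose from 27.4 ± 3.30 to 40.1 ± 3.36 CPM (SD, n = 6 each; log2 fold change 0.55, FDR 0.000631). Of 5 tested genes of taurine supply, which feeds the conjugation by Baat, the transporter Slc6a6 was lower by a log2 fold change of -0.42 (FDR 0.038), a call lost when any of controls 1, 3 and 6 or BIBB-515 mice 6, 7, 9, 10 and 11 was left out (edgeR FDR up to 0.0796). The dioxygenase Cdo1 had a log2 fold change of 0.18 (FDR 0.164) and the decarboxylase Csad one of -0.58 (FDR 0.239), and Csad ranged from 36.0 to 187 CPM among controls.

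Of 19 tested regulators, 2 were called (10.5%, beside 13.7% of all tested genes), and DESeq2 called 4. Mafg, which encodes a repressor of bile acid synthesis genes, rose by 0.27 on the log2 scale (edgeR FDR 0.0129), and Ppargc1a, a coactivator, fell by 0.79 (FDR 0.0139). Without control 2, 4 regulators were called, Fgfr4 and Nr1i2 being the added ones, both named after their values were seen. The bile acid receptor Nr1h4 had a log2 fold change of -0.06 (95% interval -0.26 to 0.13), and its target Nr0b2 one of 0.05 (95% interval -0.35 to 0.44). Nr5a2, whose core letters were searched above, had -0.03 (95% interval -0.26 to 0.19), and Hnf4a, whose core is in the printed Cyp8b1 run, -0.15 (95% interval -0.37 to 0.07). Fgf15, the intestinal hormone that represses Cyp7a1, had 0 counts in every liver library.

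No bile acid transporter and no clock gene was called by edgeR's quasi-likelihood test, among 4 and 14 tested. At an unadjusted p under 0.05 there were 1 transporter (Slc10a1) and 2 clock genes (Cry1 and Nr1d2), and DESeq2 called 1 and 0. Of all tested genes, 29.7% had an unadjusted p under 0.05. Without control 2, 1 clock gene was called (Cry2), and without control 4 again 1 (Cry1), all named after their values were seen. Cyp7a1 is known to follow the daily cycle. The clock output gene Dbp had a log2 fold change of 0.25 (FDR 0.57) and Nr1d1 one of 0.11 (FDR 0.36), and the part of the clock in the spread of Cyp7a1 was not tested. Reads that overlap another gene were left out of the counts of Dbp, which were 2.23-fold higher in tables that include them. Among genes of peroxisomal oxidation, the organelle system that holds Acox2 and Amacr, the thioesterase Acot4 fell from 72.4 ± 11.7 to 46.6 ± 11.6 CPM (SD, n = 6 each; edgeR FDR 0.0129). Among markers of other liver cells, edgeR called none of 6 for bile ducts, whose summed level was 82.0 to 135 CPM in controls and 111 to 174 CPM with BIBB-515, and none of 5 for Kupffer cells, 3 for leukocytes and 6 for endothelium, with 1, 0, 0 and 0 at an unadjusted p under 0.05 and 1, 0, 0 and 0 called by DESeq2. Of 6 stellate cell markers, Lrat and Dcn were called lower, beside 6.48% of all tested genes, and the call of Dcn was lost in 10 of 20 alternatives.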

How the data were processed

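Liver RNA-seq libraries of 12 mice were grouped by the diet in their labels. The authors deposited raw counts per gene and per exon for each mouse, made per the file headers with featureCounts 1.6.3 from alignments to mm10 (STAR 2.5.3a per the submitters' processing notes) and a UCSC annotation, with no strand option and, for the gene counts, without multi-mapping reads or reads on several genes. Tables counted on transcripts were not used. The filter kept genes that reached 1 CPM in 2 or more of 12 samples, 12481 of 24062. TMM-scaled counts entered edgeR 4.0.16 (R 4.3.3), whose quasi-likelihood test had diet as its single term, with Benjamini-Hochberg adjustment over all tested genes; this fit was tested on simulated data. Single genes and log2 ratios, with 0.5 counts added, were compared by two-sided exact permutation tests over all labelings of the mice. Exon values are descriptions. Shared 50-base words came from GENCODE transcripts of the same assembly. The members and lists were chosen with earlier results of these data known. Named genes are the 10 members, companion genes past an FDR of 0.05 (up to 6 per list), 9 genes fixed by name, and the 5 genes most like Cyp7a1 and Cyp8b1; 1 gene under this rule is not reported here, although it stays in the counts. Alternatives were DESeq2 1.42.0, limma-voom (limma 3.58.1), 2 other normalizations, no filter, 1 CPM in at least 6 samples, tables of primary alignments, 1 surrogate variable (sva 3.50.0), an offset of 5 counts, medians for exons and leaving out each mouse. Depth was 22764819 to 31058370 counts per mouse. Intervals at 95% are for the log2 fold change between the diets and were computed from its SE. Mice shared cages per the labels, and the cage of each mouse is not given in the sources used here. The tests held no term for cage and took each mouse as independent. An effect of cage therefore cannot be told apart from that of diet.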

Additional observations from a re-analysis of the deposited data

Results flagged for a closer look

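Ppargc1a, the coactivator among the companion genes, had 1 control mouse far from the others. Control 2 had 42.7 CPM, and the nearest control had 25.2 CPM, a gap of 0.694 of the range of the group against a critical value of 0.625 for 6 samples. This was 1 of 66 groups examined, of which chance would mark 3.3. No member had such a mouse in either group.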

How the results depend on the processing

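The calls of Cyp8b1, Akr1d1, Cyp7b1 and Acox2 held in all 20 alternative fits, with log2 fold changes of 0.75 to 0.86, 0.63 to 0.71, 0.57 to 0.74 and 0.37 to 0.43 when each mouse was left out. The number of members called was 4 or 5, and that of all genes 1489 to 2436 with all mice and 1199 to 1865 with 1 left out, beside 1705. DESeq2 called 17 companion genes in place of 11. The log2 ratio of Cyp8b1 to Cyp7a1 differed by 0.95 to 1.45, that of Cyp7b1 to Cyp7a1 by 0.79 to 1.24 and that of Cyp27a1 to Cyp7a1 by 0.38 to 0.81 when each mouse was left out, and the exact adjusted permutation p of the first 2 fell under 0.05 in 2 of the 12 cases each. Amacr and Hsd3b7, whose estimates are near 0, changed sign: Amacr to -0.0016 with at least 1 CPM in 6 samples, Hsd3b7 to 0.0090 with 1 surrogate variable, and with each mouse left out they ran from -0.053 to 0.043 and from -0.085 to 0.071. Slc6a6 was the only companion gene of the 11 to lose its call, in 8 fits, and the cause was not tested. No paired analysis was possible because the groups share just 1 replicate number. Cyp7a1 had at least 1563 counts in every library and a coefficient of variation between mice of 50.3% in controls and 36.4% with BIBB-515.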
